A study of Arabidopsis halleri with 12 samples.

Results

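The genes examined are 3 genes of root hair cell walls in roots of Arabidopsis halleri, a zinc hyperaccumulator: the expansins EXPA7 and EXPA18 and the extensin-like gene AT5G06630. They were taken by gene symbol from the table that pairs probe sets with genes, in which each of the 3 had exactly 1 probe set (259525_at, 261099_at and 250682_x_at), among 13350 genes named by 1 or more single-gene probe sets. The 12 single-colour arrays fell into 4 groups of 3, given here as RNAi zinc, RNAi control, WT zinc and WT control. RNAi is the line AhNAS2-RNAi-1-2, in which the nicotianamine synthase gene AhNAS2 was suppressed by RNA interference, and WT is the Langelsheim wild type. Zinc stands for Hoagland solution with 10 µM Zn2+ added, and control for the Hoagland solution alone. All plants were vegetatively propagated, grown in hydroponics and labelled as 5 weeks old, and each sample pooled the roots of 3 plants. The study did 3 independent experiments, but no label says that a replicate number stands for an experiment, so that the p-values rest on the spread from one pooled sample to another. Since 1 RNAi line was profiled, AhNAS2 suppression and other differences of that line cannot be told apart. The suppression of the target gene was not analysed here.

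Root hairs are tubular outgrowths of epidermal cells that grow at the tip and take up water and nutrients, and their growth needs a wall that yields at the tip and is strengthened behind it. Expansins are small secreted proteins that loosen walls without cutting their polymers, and in Arabidopsis thaliana EXPA7 and EXPA18 are expressed in root hair cells. Extensins are hydroxyproline-rich structural glycoproteins that are crosslinked into a network in the wall, and several extensin-like genes are known from A. thaliana root hairs. The gene names are those of A. thaliana, for which the probes were designed, so that sequence differences between the species can also change a signal. The suffix _x_at marks a probe set with probes that can also match other genes, and extensins have repetitive, similar sequences, so the signal of 250682_x_at may hold transcripts of related genes. In whole roots, fewer root hair cells and less of a transcript per cell cannot be told apart.

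All 3 genes were above the array medians of 5.34 to 5.39 on every array (log2 signal, the unit of all levels here). EXPA7 was at 8.05, 8.17 and 7.17 in RNAi zinc, 8.55, 8.62 and 7.52 in RNAi control, 8.11, 7.48 and 7.75 in WT zinc, and 8.37, 8.50 and 8.02 in WT control (replicates 1, 2 and 3). RNAi zinc replicate 3 was the lowest of the 12 arrays, followed by WT zinc replicate 2 and RNAi control replicate 3, and the groups overlapped within each line and each medium. EXPA18 was at 7.36, 7.06 and 5.99 in RNAi zinc, 7.60, 7.57 and 6.48 in RNAi control, 6.92, 6.28 and 6.92 in WT zinc, and 7.20, 7.46 and 7.01 in WT control. Its lowest arrays were the same 3, in the same order, and its highest were replicates 1 and 2 of RNAi control. AT5G06630 was at 10.18, 9.80 and 9.01 in RNAi zinc, 10.81, 10.80 and 9.53 in RNAi control, 9.91, 9.02 and 9.79 in WT zinc, and 10.59, 10.46 and 10.41 in WT control. Once more RNAi zinc replicate 3, WT zinc replicate 2 and RNAi control replicate 3 were the lowest 3 arrays. For EXPA18 and AT5G06630 every WT zinc array lay below every WT control array, and no other pair of groups within a line or medium was without overlap.

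**Figure D1:**
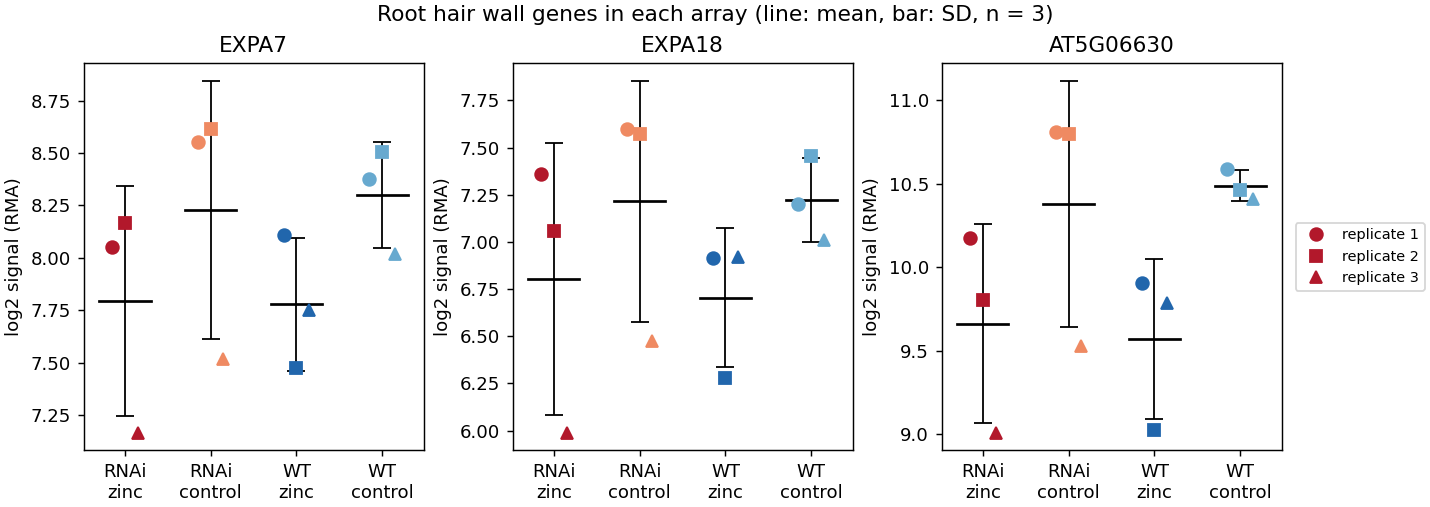
Log2 signal of EXPA7, EXPA18 and AT5G06630 on each of the 12 arrays, by group (x axis), with the group mean as a line and the SD as a bar (n = 3). RNAi zinc replicate 3 is the lowest array for each gene, and the AT5G06630 values of WT zinc, 9.02 to 9.91, lie below those of WT control, 10.41 to 10.59, as do those of EXPA18, 6.28 to 6.92 against 7.01 to 7.46.

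The order of the group means was the same for each gene: WT control, RNAi control, RNAi zinc and WT zinc, from the highest to the lowest. For EXPA7 the means were 7.79 ± 0.55 in RNAi zinc, 8.23 ± 0.62 in RNAi control, 7.78 ± 0.32 in WT zinc and 8.30 ± 0.25 in WT control (SD, n = 3 each). For EXPA18 they were 6.80 ± 0.72, 7.21 ± 0.64, 6.71 ± 0.37 and 7.22 ± 0.22 in the same groups. For AT5G06630 they were 9.66 ± 0.60, 10.38 ± 0.74, 9.57 ± 0.48 and 10.49 ± 0.092. Neighbours in this order overlapped in every case, so the order within a medium is not set beyond the spread between replicates. The spread itself differed between groups: AT5G06630 spanned 1.17 in RNAi zinc, 1.28 in RNAi control, 0.88 in WT zinc and 0.18 in WT control.

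The 3 genes varied far more between replicates than most. Their SD within groups was 0.46 for EXPA7, 0.53 for EXPA18 and 0.53 for AT5G06630, against a median of 0.14 over all probe sets, and 97.9%, 98.7% and 98.7% of probe sets had a lower one. Over the 12 arrays EXPA7 ranged 2.73-fold, EXPA18 3.05-fold and AT5G06630 3.48-fold, where the median probe set ranged 1.40-fold. The share of each gene's variance that lay within groups was 71.0% for EXPA7, 77.1% for EXPA18 and 52.9% for AT5G06630, and the median probe set had 71.7% within groups. Zinc took up 28.7%, 22.4% and 46.4% of the variance of the same 3 genes, against a median of 5.48%. The line took up 0.096%, 0.21% and 0.0061%, against a median of 7.72%. These shares describe the 12 arrays and are not tests.

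The comparison of the lines asked whether root hair wall genes differed with suppression of AhNAS2, and in these arrays no difference was resolved. One limma model with a mean for each of the 4 groups was used throughout, with two-sided tests, Benjamini-Hochberg adjustment over the 22746 probe sets tested and a threshold of 0.05. Over both media EXPA7 was at 8.01 ± 0.57 in RNAi and 8.04 ± 0.38 in WT (SD, n = 6 each), with a log2 fold change of -0.028 (SE 0.22, limma adjusted p = 0.978). Its 95% interval ran from -0.51 to 0.46, so that a fold change of 1.37 upward or a ratio of 0.70 downward stays inside it. EXPA18 was at 7.01 ± 0.65 in RNAi and 6.96 ± 0.39 in WT, with a log2 fold change of 0.045 (SE 0.25, 95% interval -0.51 to 0.60, limma adjusted p = 0.966). AT5G06630 was at 10.02 ± 0.72 in RNAi and 10.03 ± 0.59 in WT, with a log2 fold change of -0.0093 (SE 0.26, 95% interval -0.57 to 0.55, limma adjusted p = 0.993). The background was 239 of all probe sets past the threshold, or 1.05%, and 0 of the 3 genes were among them. At an unadjusted p under 0.05 the background was 13.3%, and here too 0 of the 3 were among them. The SEs of 0.22 to 0.26 stood against a median SE of 0.077 over all probe sets in this comparison.

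With added zinc the log2 fold changes of RNAi against WT were 0.015 for EXPA7, 0.098 for EXPA18 and 0.090 for AT5G06630, with limma adjusted p-values of 0.998, 0.983 and 0.985. In control medium they were -0.071, -0.0077 and -0.11, with limma adjusted p-values of 0.975, 0.997 and 0.963. With added zinc 12 probe sets passed among all tested, or 0.0528%, and in control medium 5 did, or 0.022%, and 3 with the replicate number as a block. None of the 3 genes passed in either medium, nor had any an unadjusted p under 0.05, which 7.72% of probe sets had with added zinc and 8.76% in control medium. All 3 overlapped between the lines in both media. Without overlap, 5.84% of probe sets were higher and 6.82% lower in RNAi with added zinc, and 6.82% higher and 7.09% lower in control medium. In both media the values turned on single arrays: without RNAi zinc replicate 3 the 3 differences in added zinc were 0.33, 0.50 and 0.42, and without RNAi control replicate 3 those in control medium were 0.28, 0.36 and 0.32.

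The comparison of the media asked how the roots responded to added zinc, and all 3 genes had lower means with zinc in both lines, without passing the threshold. The value was lowest for the extensin-like gene. In RNAi roots AT5G06630 was at 9.66 ± 0.60 with zinc and 10.38 ± 0.74 in control medium, a log2 fold change of -0.72 (SE 0.36, 95% interval -1.51 to 0.078, limma adjusted p = 0.9996). EXPA7 had -0.43 (SE 0.31) and EXPA18 -0.41 (SE 0.36), each with a limma adjusted p of 0.9996. All 3 overlapped between the media in this line, where 5.41% of probe sets were lower and 4.61% higher with zinc without overlap, and 0 of all probe sets passed with limma (percent called 0), with 1027, or 4.52%, at an unadjusted p under 0.05. RNAi zinc replicate 3 weighed on these values: without it EXPA7 was at -0.12, EXPA18 at -0.0051 and AT5G06630 at -0.39, while without RNAi control replicate 3 they were at -0.79, -0.78 and -1.14.

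In WT roots AT5G06630 was at 9.57 ± 0.48 with zinc and 10.49 ± 0.092 in control medium (SD, n = 3 each), a log2 fold change of -0.91 (SE 0.36, 95% interval -1.71 to -0.12), which is a ratio of 0.53. Its unadjusted p was 0.0275 and its limma adjusted p was 0.972. In this comparison 11 probe sets had a lower fold change, but by limma p the gene ranked only 615. Its SD within groups was above that of 98.7% of probe sets. EXPA7 had a log2 fold change of -0.52 (SE 0.31, limma adjusted p = 0.972) and EXPA18 one of -0.52 (SE 0.36, limma adjusted p = 0.972). No probe set passed limma's threshold in WT (0 of all tested, percent called 0), and 1147, or 5.04%, had an unadjusted p under 0.05. Groups that did not overlap, lower with zinc, were found for 2 of the 3 genes, EXPA18 and AT5G06630, and for 1166 of all probe sets, or 5.13%, while 5.17% were higher without overlap. The interaction, the zinc effect in RNAi minus that in WT, was 0.086 (SE 0.44) for EXPA7, 0.11 (SE 0.51) for EXPA18 and 0.20 (SE 0.51) for AT5G06630, with a limma adjusted p of 0.9999 each. In it 0 of all probe sets passed with limma (percent called 0), and 497, or 2.18%, had an unadjusted p under 0.05.

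Over both lines the zinc effect was measured on 6 arrays per medium. AT5G06630 averaged 9.62 ± 0.49 with zinc and 10.43 ± 0.47 in control medium, a log2 fold change of -0.81 (SE 0.26, 95% interval -1.38 to -0.25, unadjusted p = 0.0082, limma adjusted p = 0.508). Here 19 probe sets had a lower fold change, while by limma p the gene ranked 368. EXPA7 averaged 7.79 ± 0.40 with zinc and 8.26 ± 0.42 in control medium, a log2 fold change of -0.48 (SE 0.22, 95% interval -0.96 to 0.0090, limma adjusted p = 0.656). EXPA18 averaged 6.75 ± 0.51 with zinc and 7.22 ± 0.43 in control medium, a log2 fold change of -0.46 (SE 0.25, 95% interval -1.02 to 0.091, limma adjusted p = 0.714). None of the 3 passed, nor did any other probe set with limma (0 of all tested, percent called 0), and 1734, or 7.62%, had an unadjusted p under 0.05. All 3 overlapped between the media, as did nearly all probe sets, of which 0.281% were lower and 0.233% higher with zinc without overlap. Over 20 alternative settings each the zinc values stayed below 0, between -0.65 and -0.32 for EXPA7, between -0.65 and -0.26 for EXPA18 and between -1.03 and -0.65 for AT5G06630, each lowest without RNAi control replicate 3 and each closest to 0 without RNAi zinc replicate 3.

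A technical level moved with the medium as well. The 18 hybridization spike-in control probe sets, which carry no plant RNA, averaged 9.90 ± 0.063 in RNAi zinc against 10.27 ± 0.16 in RNAi control, and 9.95 ± 0.12 in WT zinc against 10.22 ± 0.034 in WT control (SD over arrays, n = 3 each). With that level as a covariate the zinc values over both lines were -0.35 (SE 0.50) for EXPA7, -0.44 (SE 0.57) for EXPA18 and -0.77 (SE 0.58) for AT5G06630. Without the covariate the SEs were 0.22, 0.25 and 0.26. Since every zinc array had a lower spike-in level than every control array, the medium and this level cannot be told apart.

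**Figure D2:**
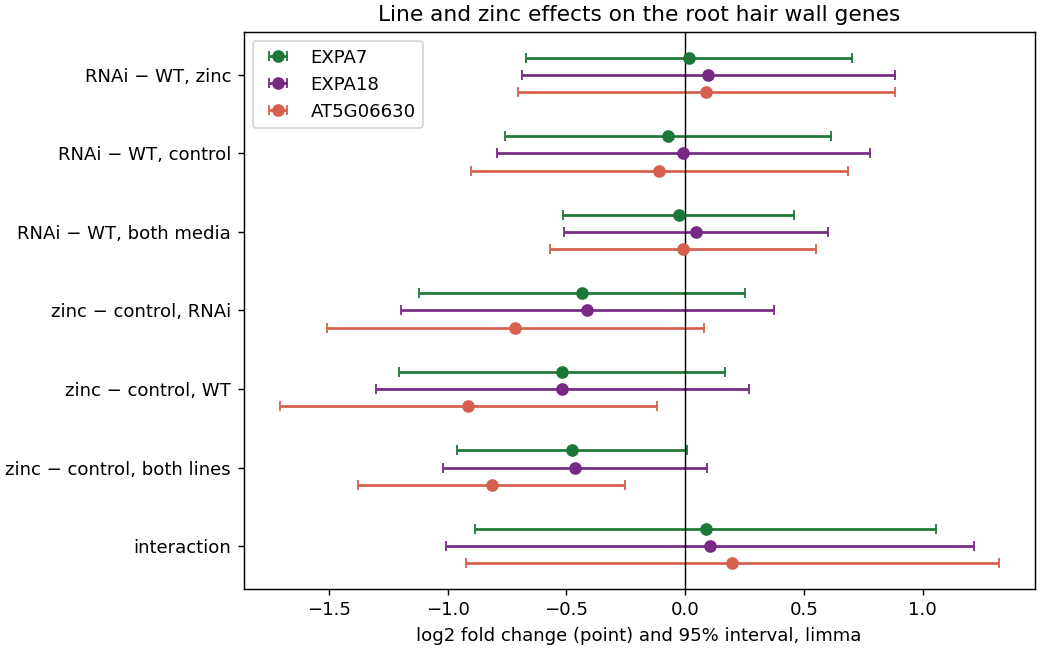
Log2 fold change (point) and its 95% interval from limma for EXPA7, EXPA18 and AT5G06630 in each of the 7 comparisons. The line comparisons lie around 0, the zinc comparisons lie below 0, and of the zinc intervals only those of AT5G06630 in WT (-1.71 to -0.12) and over both lines (-1.38 to -0.25) leave out 0 before adjustment.

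Although no group difference passed, the levels of the 3 genes varied together from array to array. Over the 12 arrays EXPA7 and EXPA18 correlated with Pearson's r = 0.954 and Spearman's rho = 0.916 (permutation p = 2e-05 and 9e-05, adjusted p = 8e-05 and 0.0001 over the 6 coefficients of 3 pairs, two-sided). EXPA7 and AT5G06630 had r = 0.931 and rho = 0.916 (permutation p = 4e-05 and 0.0001, adjusted p = 8e-05 and 0.0001). EXPA18 and AT5G06630 had r = 0.938 and rho = 0.923 (permutation p = 3e-05 and 6e-05, adjusted p = 8e-05 and 9e-05). The trio had been put together with earlier results of these arrays known, so the p-values describe these arrays only. The permutations also shuffled arrays without regard to group, so shared differences between the media enter these p-values. Without RNAi zinc replicate 3 and WT zinc replicate 2, the arrays farthest from the median on the x axis, the 3 values of r were 0.906, 0.874 and 0.867 (10 arrays, permutation p = 0.0004, 0.00097 and 0.00127). Deviations from the group means, which hold no effect of line or zinc, correlated with r = 0.945, 0.917 and 0.958 in the same pairs. The genes thus also moved together among replicates of the same group.

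**Figure D3:**
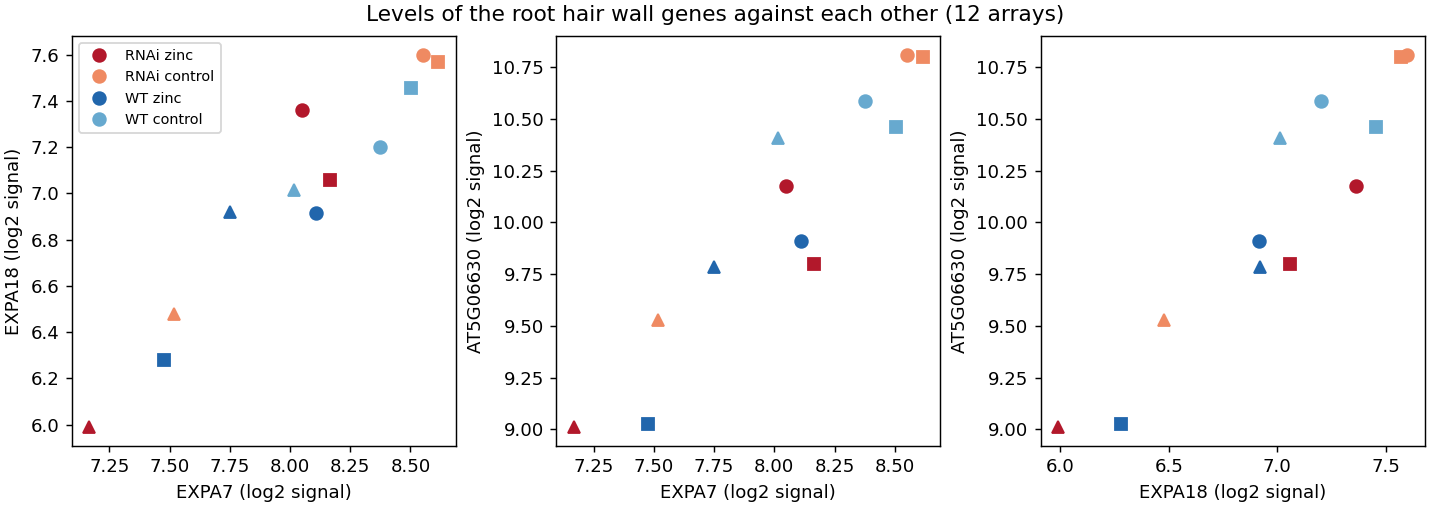
Log2 signal of each pair of the 3 genes on the 12 arrays, with colours for the groups and circles, squares and triangles for replicates 1, 2 and 3. The points run along a line in each panel (r = 0.954, 0.931 and 0.938), with RNAi zinc replicate 3 at the low end and RNAi control replicates 1 and 2 at the high end.

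In RNAi roots replicate 3 was the low array in both media, with deviations from the group mean of -0.63 with zinc and -0.71 in control medium for EXPA7, -0.81 and -0.74 for EXPA18, and -0.65 and -0.85 for AT5G06630. In WT roots the low array differed between media: with zinc it was replicate 2, with -0.30, -0.42 and -0.55 for the same genes, and in control medium replicate 3 was lowest, with -0.28, -0.21 and -0.078. The largest axis of variation between replicates over all probe sets held 33.6% of the variance within groups, and the slopes on it were 1.08 for EXPA7, 1.28 for EXPA18 and 1.15 for AT5G06630. A smaller slope in size was found for 98.8%, 99.3% and 99.0% of probe sets. The slope was not scaled by a gene's SD within groups, so these shares in part repeat the large SDs given above. Scores on this axis were low for RNAi zinc replicate 3 (-0.36), RNAi control replicate 3 (-0.36), WT zinc replicate 2 (-0.33) and also WT control replicate 3 (-0.35). What set this axis was not tested.

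Genes whose levels were most like those of the trio were taken as the 5 single-gene probe sets with the highest r over the 12 arrays, as a description, since arrays of one group share line and medium. For EXPA7 they were ZIP9, a zinc transporter gene (r = 0.977), AT4G25790, of the CAP family of secreted cysteine-rich proteins (0.977), AT5G26070 (0.972), the extensin-like AT5G19810 (0.969) and AT4G33730, another CAP family gene (0.943). For EXPA18 they were AT4G25790 (0.960), XTH26, a xyloglucan endotransglucosylase/hydrolase that remodels wall xyloglucan (0.957), AT5G19810 (0.948), ZIP9 (0.947) and AT2G27440 (0.945). For AT5G06630 they were the extensin-like AT3G28550 (0.987), AT5G19810 (0.975), AT4G25790 (0.970), AT1G30870, a class III peroxidase (0.969), and the extensin-like AT3G54580 (0.964). AT4G25790 and AT5G19810 stood in all 3 lists and ZIP9 in those of both expansins. Probe sets without a single-gene name were left out of these lists, and some had a higher r: AT4G33730 ranked 13 among all other probe sets for EXPA7. An r of at least 0.9 was found for 42 of the other 22743 probe sets with EXPA7, or 0.185%, for 33 with EXPA18 and for 33 with AT5G06630, or 0.145% each. With all 3 genes at once it was found for 21 probe sets, of which 11 carried the name of 1 gene. The median r over all other probe sets was 0.054, 0.064 and 0.039.

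Among these genes XTH26 was at 10.07, 9.70 and 8.73 in RNAi zinc, 10.05, 10.37 and 9.02 in RNAi control, 9.77, 8.94 and 9.34 in WT zinc, and 9.60, 10.08 and 9.75 in WT control. Its lowest arrays were the same 3 as for the trio, and its zinc effect over both lines was -0.39 (SE 0.26, limma adjusted p = 0.796). ZIP9 ranged 3.38-fold over the arrays, AT5G19810 3.32-fold, AT4G25790 3.14-fold and AT4G33730 4.43-fold. The zinc effects of these 4 over both lines were -0.72, -0.77, -0.61 and -0.92 on the log2 scale, with limma adjusted p-values between 0.536 and 0.620, and their line effects over both media lay between -0.079 and 0.22. Smaller ranges were found for AT1G30870, at 2.42-fold, and AT2G27440, at 2.09-fold, with zinc effects of -0.48 and -0.25. All these genes were picked by their r over the same arrays, zinc differences included. Shared low arrays and negative zinc effects are thus in part set by that choice.

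**Figure D4:**
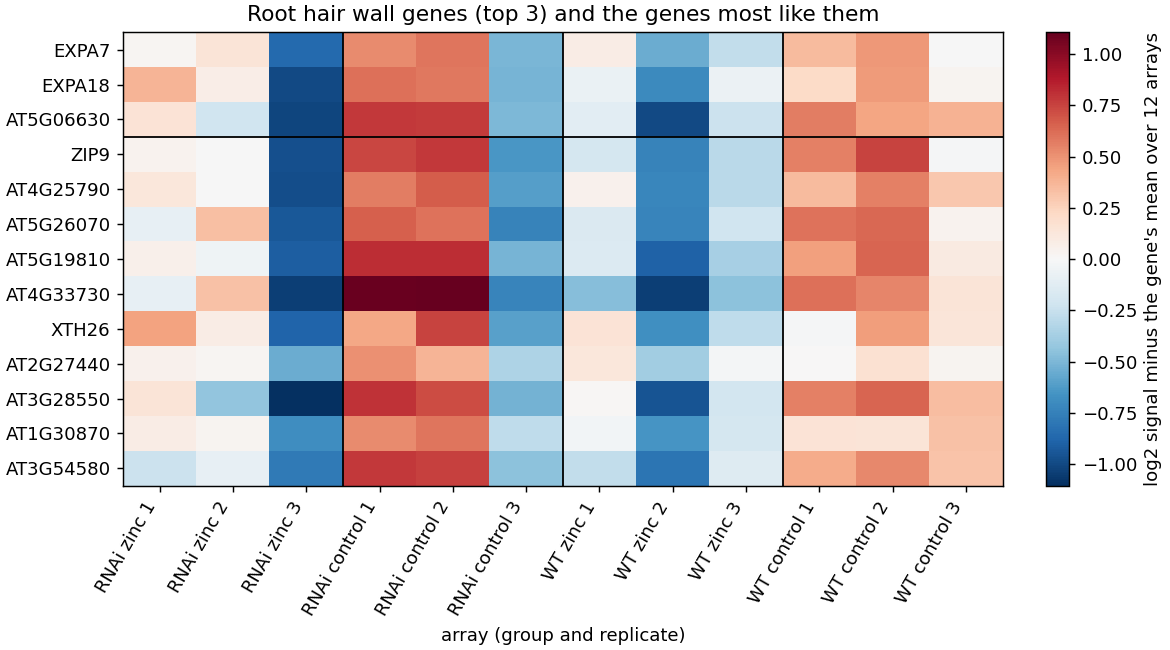
Log2 signal minus the gene's own mean over the 12 arrays (colour) for EXPA7, EXPA18 and AT5G06630 (top 3 rows) and the genes with the highest r with them (rows below), by array (columns, grouped by line and medium). The columns of RNAi zinc 3, WT zinc 2 and RNAi control 3 are low, and those of RNAi control 1 and 2 high, in nearly every row.

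Likeness was also taken from the deviations from group means alone, which use no difference between lines or media. By that measure the 5 single-gene probe sets most like EXPA7 were AT5G19810 (r = 0.981), ZIP9 (0.977), AT4G25790 (0.973), AT5G26070 (0.972) and AT3G05900 (0.965). Among all other probe sets, those without a single-gene name included, they ranked 4, 5, 7, 8 and 15. Those most like EXPA18 were AT1G54790 (0.989), AT4G25790 (0.969), AT5G61550 (0.968), AT2G39430 (0.967) and AT5G19810 (0.965), although AT1G54790, with levels of 3.72 to 4.11, lay below the array medians. Those most like AT5G06630 were AT3G28550 (0.987), AT2G12400 (0.970), AT2G37780 (0.967), AT4G25790 (0.966) and the hydroxyproline-rich glycoprotein gene HRGP1 (0.965). In total, 46 probe sets had deviations with r of at least 0.9 with each of the 3 genes. Their zinc effect over both lines had a median of -0.32 (from -1.08 to 0.27) and was below 0 for 36 of the 46, where the other 22697 had a median of -0.0040 and 51.6% below 0. None of the 46 passed with limma, and because genes that vary together on the same arrays also share the error of the group means, this is a description of these arrays and no test.

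Of the other extensins and extensin-like genes listed, 10 of 18 had a named single-gene probe set, and 3 of these carried the suffix _x_at. With AT5G06630 they correlated from r = 0.362 to 0.987 (median 0.868), and 5 of the 10 had an r of at least 0.9. All 3 with the suffix, AT4G08410, AT1G23720 and HRGP1, were among these 5, and the probe set of AT5G06630 carries it too. AT4G08370 and AT4G08380 lay below the array medians. AT3G28550 was at 7.54, 6.96 and 6.30 in RNAi zinc, 8.20, 8.13 and 6.88 in RNAi control, 7.41, 6.45 and 7.20 in WT zinc, and 7.96, 8.05 and 7.75 in WT control. It followed AT5G06630 closely, with WT zinc below WT control without overlap, and its zinc effect over both lines was -0.85 (SE 0.27, limma adjusted p = 0.508). Of the others with an r of at least 0.9, AT3G54580 had -0.78 (SE 0.21), AT4G08410 -0.74 (SE 0.22), HRGP1 -0.62 (SE 0.22) and AT1G23720 -0.60 (SE 0.18). In this list the median zinc effect over both lines was -0.52, with 9 of 10 below 0, against a median of -0.0040 and 51.7% below 0 over all probe sets. The list was chosen with earlier results of these data known, and 5 of the 10 followed AT5G06630 with an r of at least 0.9. Such counts in it are thus a description and no test. For RNAi against WT over both media the median of the list was -0.12, with 8 of 10 below 0, against -0.0014 and 50.5% over all probe sets. In control medium it was -0.19 with 8 of 10 below 0, and with added zinc -0.059 with 7 of 10. None of the 10 passed in any of the 7 comparisons with limma. Closest to the threshold came AT1G26240 between the lines, at 7.77 ± 0.05 in RNAi zinc, 8.09 ± 0.33 in RNAi control, 8.10 ± 0.15 in WT zinc and 8.66 ± 0.02 in WT control (-0.45 over both media, SE 0.098, limma adjusted p = 0.0544). Its r with AT5G06630 was 0.654. Extensin probes may share targets, so these probe sets are not independent of each other.

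The other expansins had lower correlations with EXPA7 than EXPA18 had. Besides EXPA7 and EXPA18, 16 expansins and expansin-like genes had a named probe set, and their r with EXPA7 ran from -0.469 to 0.465 (median 0.290, against 0.054 over all probe sets). Of the 16, 7 had mean levels below the array medians, where an r is less certain. The highest r was found for EXPA15 (0.465), EXPB2 (0.462), EXPA4 (0.391) and EXPA24 (0.314), and the lowest for EXLA1 (-0.469) and EXLA3 (-0.251). Of these, EXPB2, EXPA24, EXLA1 and EXLA3 had means below the array medians. By deviations from group means the r with EXPA7 ran from -0.575 for EXLA1 to 0.685 for EXPA24 (median 0.172). Their median zinc effect over both lines was -0.061, with 11 of 16 below 0, and EXPA15 was at -0.13 (SE 0.13) and EXPA4 at -0.099 (SE 0.10). None of the 16 passed in any comparison with limma, and the lowest adjusted p was 0.333, for EXPA9 between the lines in control medium.

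Other root hair genes were few among the named probe sets. Of 20 further genes of hair wall proteins and enzymes 2 could be read, XTH26 and CSLD2, a cellulose synthase-like gene, and CSLD2 had r = 0.027 with EXPA7 and a zinc effect over both lines of -0.053 (SE 0.099). Of 20 genes of the growth machinery 2 could be read: FER, a receptor kinase (r = 0.363 with EXPA7, zinc effect 0.029), and SCN1, a regulator of ROP GTPases that limits where hairs form (r = 0.562, zinc effect 0.012). The transcription factor AT2G14760, listed as RSL3, had r = -0.035 with EXPA7, and TRY, an R3 MYB of epidermal patterning, r = 0.373. These last 2 genes lay below the array medians, with means of 3.70 and 4.34, where a difference may go unseen. By deviations from group means the r was higher for some of them: with EXPA7, EXPA18 and AT5G06630 it was 0.587, 0.745 and 0.702 for FER, 0.772, 0.670 and 0.624 for SCN1, and 0.584, 0.775 and 0.754 for TRY. It was -0.091, 0.124 and 0.152 for CSLD2, and 0.155, 0.208 and 0.040 for AT2G14760. None of these passed in any comparison with limma, the lowest adjusted p being 0.241 for TRY between the lines over both media. No other member of these lists, and none of the 8 further root hair-specific genes listed, had a named single-gene probe set.

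**Figure D5:**
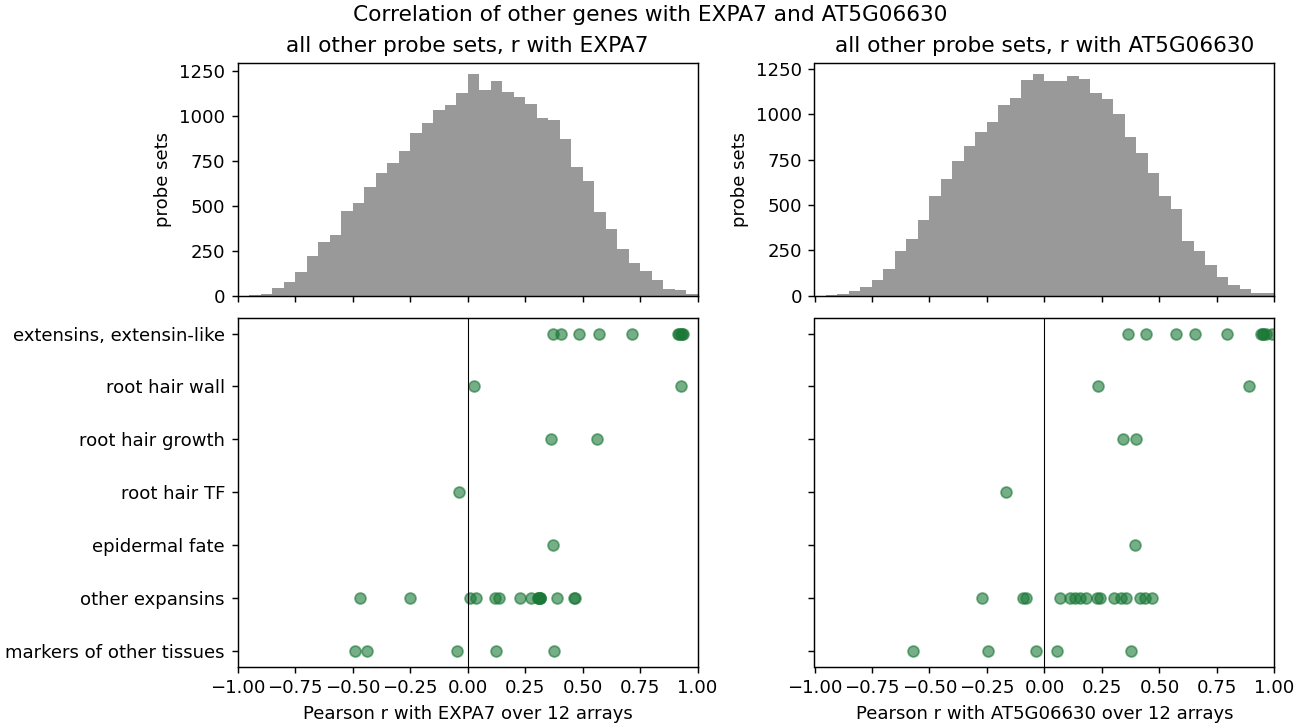
Pearson's r over the 12 arrays with EXPA7 (left) and AT5G06630 (right): counts of all other probe sets in bins of 0.05 above, and single genes of the lists below (1 point a probe set). Extensins reach r = 0.987 with AT5G06630, XTH26 has r = 0.928 with EXPA7, and the other expansins lie between -0.469 and 0.465 with EXPA7.

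Markers of other tissues were checked beside these results. The photosynthesis genes LHCB4.1 and RCA, the 2 of 17 shoot markers with a named probe set, had levels of 5.23 to 6.09 and 4.57 to 5.06, near or below the array medians. LHCB4.1 was at 5.39 to 6.09 in RNAi zinc, 5.27 to 5.64 in RNAi control, 5.23 to 5.62 in WT zinc and 5.28 to 5.50 in WT control, with r = -0.044 with EXPA7 and a zinc effect over both lines of 0.17 (SE 0.12). RCA was at 4.59 to 4.82 in RNAi zinc, 4.66 to 4.71 in RNAi control, 4.60 to 4.64 in WT zinc and 4.57 to 5.06 in WT control, with r = 0.374 with EXPA7, 0.447 with EXPA18 and 0.378 with AT5G06630, and a zinc effect over both lines of -0.098 (SE 0.078). The cortex marker AT1G62500, 1 of 5 for endodermis and cortex, was at 7.87 to 8.08 in RNAi zinc, 7.06 to 8.09 in RNAi control, 7.42 to 8.12 in WT zinc and 7.27 to 7.79 in WT control. It ran against the trio, with r = -0.488 with EXPA7 and -0.573 with AT5G06630, and a zinc effect over both lines of 0.35 (SE 0.18, limma adjusted p = 0.705). The lateral root genes LBD16 and LBD29, 2 of 5 for root cap and lateral root, had r = 0.124 and -0.437 with EXPA7. Their zinc effects over both lines were both below 0 (median -0.13), as they were in RNAi (median -0.28), while in WT 1 of the 2 was (median 0.016). No vascular marker had a named probe set. The part of tissue makeup in the values of the trio was not tested.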

How the data were processed

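The deposited table held 1 log2 expression value per probe set and array, and the submitters' processing notes name RMA and the affy package. Their versions and the probe definition are not given in sources used here. Of 22810 probe sets 64 controls were left out, leaving 22746, of which 13513 were annotated to 1 gene, 503 to several and 8730 were unnamed in the annotation used. Values ran from 2.46 to 14.3, and arrays correlated at 0.982 to 0.996. The number of arrays limits the precision.

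Values were used as deposited in limma 3.58.1 under R 4.3.3 (lmFit, eBayes, 8 residual and 3.79 prior degrees of freedom), and correlations used 100000 permutations in Python 3.11.15 with numpy 2.4.6. The procedure was tested on simulated data, in which mean estimates had to match the simulated zinc changes. Noise there was drawn independently for each probe set, whereas probe sets on these arrays varied together between replicates. The simulation thus does not test calls under such shared variation. The 3 genes and all lists were chosen with earlier results of these data known, and the alias HRGP1 was added after the annotation was seen. Named genes were the trio, the 5 most like each, up to 6 per list by range, and 6 expansins by r.

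Deviations of same-numbered arrays from group means were correlated to test pairing. With added zinc 1 of 3 RNAi and WT pairs exceeded 0.1 (-0.021 to 0.34), and in control medium 3 of 3 did (0.16 to 0.48). Zinc and control pairs did so in 2 of 3 cases for RNAi (-0.084 to 0.41) and 0 of 3 for WT (-0.45 to -0.12). Values of similar size thus lay on both sides of 0, so they do not show a pairing. Any pairing read from them would come from the data, not the labels. Alternatives were 2 scalings, a fit of only the groups compared, 2 spread models, array weights, a filter on the lowest 25%, the replicate block, the spike-in covariate and each array left out.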

Additional observations from a re-analysis of the deposited data

How the results depend on the processing

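None of the 3 genes passed in any comparison under any alternative, and all zinc values stayed below 0. The 6 correlation coefficients kept their sign and their call in all 15 settings each, from 0.811 to 0.977. Line and interaction values were small against their SEs as reported, and changed sign under some settings. With single arrays left out they reached 0.50 for the line with added zinc (EXPA18) and 0.52 for the interaction (AT5G06630). With array weights EXPA7, EXPA18 and AT5G06630 were at -0.0060, -0.014 and -0.022 for RNAi against WT with added zinc, at 0.096, 0.17 and 0.050 in control medium, and at -0.10, -0.19 and -0.072 for the interaction, and over both media EXPA7 and AT5G06630 were at 0.045 and 0.014. With quantile normalization EXPA7 was at -0.00015 with added zinc, and with array medians subtracted EXPA18 was at 0.0017 in control medium. The cause was not tested.

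With single arrays left out the line values with added zinc ran from -0.17 to 0.33 for EXPA7, -0.18 to 0.50 for EXPA18 and -0.18 to 0.42 for AT5G06630. In control medium they ran from -0.26 to 0.28, -0.20 to 0.36 and -0.32 to 0.32 for the same genes. Over both media they ran from -0.12 to 0.15, -0.094 to 0.25 and -0.15 to 0.20, and the interaction from -0.27 to 0.40, -0.26 to 0.51 and -0.23 to 0.52.

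The count of probe sets past the threshold for RNAi against WT in control medium, 5 as reported, was 3 with only the groups compared, 11 with an intensity trend, 31 with array weights, 9 without the lowest 25% of probe sets, 3 with the replicate block, 3 with the spike-in covariate and 1 to 20 with single arrays left out. With single arrays left out it was 2 to 29 with added zinc, 68 to 267 over both media, 0 to 1 for zinc in WT and 0 to 4 for zinc over both lines.

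With the replicate block the count was 2 for zinc over both lines, without any of the trio, whose values there were -0.48 (SE 0.16), -0.46 (SE 0.21) and -0.81 (SE 0.22), with limma adjusted p-values of 0.535, 0.663 and 0.465. The numbers are not shown to pair the media. A block within only the groups of a comparison, chosen after seeing the data, gave 8 probe sets in control medium and, for zinc in RNAi, SEs of 0.086, 0.096 and 0.12 for the trio with limma adjusted p-values from 0.796 to 0.873. The differences of zinc and control arrays with the same number ran from -1.44 to -0.094 over the trio. Its genes vary together, so they are not separate cases, and the share of all probe sets with such differences was not taken. Probe sets below the array medians limit what the RSL3 and TRY values can show.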
